A study of Drosophila melanogaster with 2 samples.

Results

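Anti-GFP chromatin immunoprecipitation (ChIP-seq) of a tagged Worniu protein gave 7705 peaks of middle strength that lay outside the reproducible peak list, and these peaks are described here. Each had a signal from 40 to 60, the authors' own measure of peak strength, in a ranked list made from both replicates, and the set was chosen by this signal. Each lay on a named chromosome arm and overlapped neither a peak of the authors' conservative list nor a stronger ranked peak. The conservative list holds peaks that passed a limit on the irreproducible discovery rate (IDR), a measure of how well peak ranks repeat between sets of peaks. The ranked list held 62469 peaks on the arms. Of them, 7788 had a signal in this range, 7728 lay outside the conservative list and 7705 had no stronger overlapping peak.

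The embryos were Drosophila melanogaster of the strain wor-GFP, aged 0 to 18 h, transgenic for a wor-eGFP fusion that the labels give as an insertion targeting wor. Whole embryos of this strain form 1 group with 2 biological replicates, and no untagged or control immunoprecipitation is analysed here. Which promoter drives the fusion is not stated in the labels, and a whole embryo mixes neuroblasts with all other tissues. Library depth is unknown, since the files hold no read numbers. With 1 group no test across embryos was possible, and each p-value below is over peaks, which are not replicates. Bracketed intervals are Wilson intervals at 95% and take in counting error alone.

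Worniu is a zinc finger protein of the Snail family made by the neuroblasts, from which the fly's central nervous system arises. Snail-family proteins are known to bind E-boxes, DNA sites of the form CANNTG, with a preference for CAGGTG and its reverse complement CACCTG, and act mainly as repressors. Ranked lists in an IDR procedure are made long on purpose, so that they reach into peaks that do not repeat.

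The following windows, each reaching 50 bases to either side of the summit of a mid-strength peak, show what these peaks look like in sequence. They are read from the plus strand of Release 6 (dm6), in lower case, with CAGGTG or CACCTG in capitals. The first 3 are peaks with the hexamer that were among the strongest in both replicates. They lie in an intron of TkR86C (chr3R:10747668-10747768), a neuropeptide receptor gene, in an intron of Pdp1 (chr3L:7841468-7841568), a transcription factor gene of the circadian clock, and upstream of CG43403 (chr2L:2616942-2617042).
TkR86C: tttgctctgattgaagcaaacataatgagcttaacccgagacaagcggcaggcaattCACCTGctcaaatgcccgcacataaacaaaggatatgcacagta
Pdp1: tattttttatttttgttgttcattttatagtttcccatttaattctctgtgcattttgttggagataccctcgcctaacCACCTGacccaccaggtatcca
CG43403: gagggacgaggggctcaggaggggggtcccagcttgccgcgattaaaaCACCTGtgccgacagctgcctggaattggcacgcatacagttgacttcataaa

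The next windows hold more than 1 copy. They lie in an intron near stops (chr3R:31170191-31170291), which encodes a SOCS-box protein of photoreceptors, and in a coding exon of sina (chr3L:16856679-16856779), a ubiquitin ligase gene of the R7 photoreceptor.
stops: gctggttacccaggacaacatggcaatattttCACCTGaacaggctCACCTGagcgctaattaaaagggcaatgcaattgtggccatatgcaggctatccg
sina: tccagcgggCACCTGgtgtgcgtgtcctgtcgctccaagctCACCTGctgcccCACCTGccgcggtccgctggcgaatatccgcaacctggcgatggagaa

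The next windows lie in a coding exon of wor (chr2L:15423833-15423933) and downstream of sna (chr2L:15475835-15475935). Of the 12 mid-strength peaks nearest to Snail-family genes, only these held the hexamer. In each it lies 45.5 bases from the summit, near the edge of the window. Neither replicate had a summit within 100 bp of that of the wor peak.
wor: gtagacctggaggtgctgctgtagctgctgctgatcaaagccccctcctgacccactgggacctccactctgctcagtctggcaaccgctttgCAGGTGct
sna: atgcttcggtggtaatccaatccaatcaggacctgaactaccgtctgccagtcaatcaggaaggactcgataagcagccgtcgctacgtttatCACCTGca

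Most mid-strength peaks lacked the hexamer. The last windows are the strongest such peak by the lower of its replicate signals, upstream of CG44869 (chr2L:15419059-15419159), and an AT-rich peak in an intron of bel (chr3R:8659329-8659429), an RNA helicase gene.
CG44869: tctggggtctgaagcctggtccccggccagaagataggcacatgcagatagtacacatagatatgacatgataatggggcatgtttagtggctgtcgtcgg
bel: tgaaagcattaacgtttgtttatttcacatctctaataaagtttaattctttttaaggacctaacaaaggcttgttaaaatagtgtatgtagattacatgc

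The TkR86C peak had a signal of 59.0 in the list of both replicates, 30.2 in the list of replicate 1 and 30.9 in that of replicate 2. The Pdp1 peak had 58.1, with 32.9 and 27.5 in the replicates, and the CG43403 peak had 51.3, with 28.8 and 27.1. The stops peak had 48.7, with 24.9 in replicate 1 and 20.7 in replicate 2, and the sina peak 49.6, with 18.1 and 25.1. The wor exon peak had 49.4, with 19.1 in replicate 1 and 23.9 in replicate 2, and the sna peak 40.1, with 25.2 and 21.7. The CG44869 peak had 58.9, with 32.9 and 32.5, and the bel peak 59.7, with 31.3 and 33.8. Signals of different lists are not scaled to each other, and a signal in the list of both replicates is not the mean of the other values.

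The values that chose these peaks crowded toward the lower limit. The median signal was 45.4, with quartiles of 42.3 and 49.99, and 3658 peaks (47.5%) lay between 40 and 45 against 692 (8.98%) between 55 and 60. Every peak was 364 bp wide. The −log10 of the global IDR ran from 0.0474 to 2.36, with a median of 0.278 and an upper quartile of 0.584. The lowest value among the conservative peaks compared below was 2.00. Most mid-strength peaks were far below it, but the highest was past it. Of those printed above, the CG44869 peak had 1.98 and the bel peak 1.97. The conservative peaks used for comparison were the 2765 with no stronger overlapping peak. Their median signal was 123.3, and only 16 lay between 40 and 60, so that the comparison is between peaks of different strength. A second comparison used the 33331 weaker ranked peaks, with signals under 40 and a median of 27.8, chosen in the same way. Just inside the lower limit were peaks of 40.0002 near CG33181 and 40.0003 near Cyp12e1, and just outside it peaks of 39.999 near Dip-B and 39.9989 near dan. Just inside the upper limit were 59.9985 near JhI-21 and 59.9993 near heph, and just outside it 60.0025 near org-1 and 60.007 near haf.

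Where the peaks lay in genes set them apart from the conservative peaks. Protein-coding exons held 1584 mid-strength summits (20.6%, interval 19.7 to 21.5) against 22 of the 2765 conservative summits (0.796%, interval 0.526 to 1.20). The exact adjusted p was 1.85e-193 by Fisher's exact test, two-sided, as in all comparisons of peak sets below. Coding exons make up 16.6% of the bases of the arms. Introns held 42.2% of mid-strength summits against 52.3% of conservative summits (exact adjusted p = 5.11e-19), and intergenic sequence held 29.2% against 37.6% (exact adjusted p = 3.75e-15). For introns the mid-strength share was that of the genome, 42.2% of bases, and for intergenic sequence it stood below the 31.6% of bases. 5' UTRs held 3.93% against 5.35% (exact adjusted p = 0.00363). 3' UTRs, with 1.67% against 1.19% (exact adjusted p = 0.0956), and exons of non-coding genes, with 2.44% against 2.82% (exact adjusted p = 0.291), did not pass. Over only those peaks of each set that a ranked peak of replicate 2 overlapped, the 3' UTR difference was 0.590 points and passed. This setting is called without replicate 1 below, and its counterpart without replicate 2. Both settings keep the list and the signals made from both replicates. The 16 conservative peaks with signals of 40 to 60, a comparison chosen after seeing the data, had 12.5% of their summits in coding exons, 62.5% in introns and 25% within 500 bp of a transcript start, and their median GC was 42.6%.

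Transcript starts were less prominent than in the conservative list. An annotated start was within 500 bp of 1399 mid-strength summits (18.2%, interval 17.3 to 19.0). The conservative share was 42.0% (interval 40.2 to 43.8, exact adjusted p = 7.99e-129), and 13.3% of the bases of the arms lie that close. Of the 1194 mid-strength summits within 500 bp of the start of a protein-coding gene, 622 lay upstream and 572 downstream. The weaker ranked peaks were closer to the mid-strength peaks in these shares. They had 14.0% within 500 bp of a start (exact adjusted p = 2.70e-19), 24.4% in coding exons (exact adjusted p = 7.73e-13), 40.6% in introns (exact adjusted p = 0.0117) and 27.1% in intergenic sequence (exact adjusted p = 0.000371). All 6 location classes passed against the weaker peaks, with differences of at most 3.89 percentage points. Without replicate 2 the 5' UTR difference was 0.436 points in place of 0.674 and did not pass, and without replicate 1 the intron difference was 1.24 points in place of 1.61 and did not pass. Within the mid-strength range the coding-exon share was 22.9% at signals of 40 to 45 and 12.9% at 55 to 60, and the share near starts was 16.9% and 21.2%. Annotated transposable elements held 73 mid-strength summits (0.947%) against 5.91% of bases. The shares were also low in conservative peaks, with 7 summits (0.253%), and in weaker peaks, with 402 (1.21%).

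**Figure D1:**
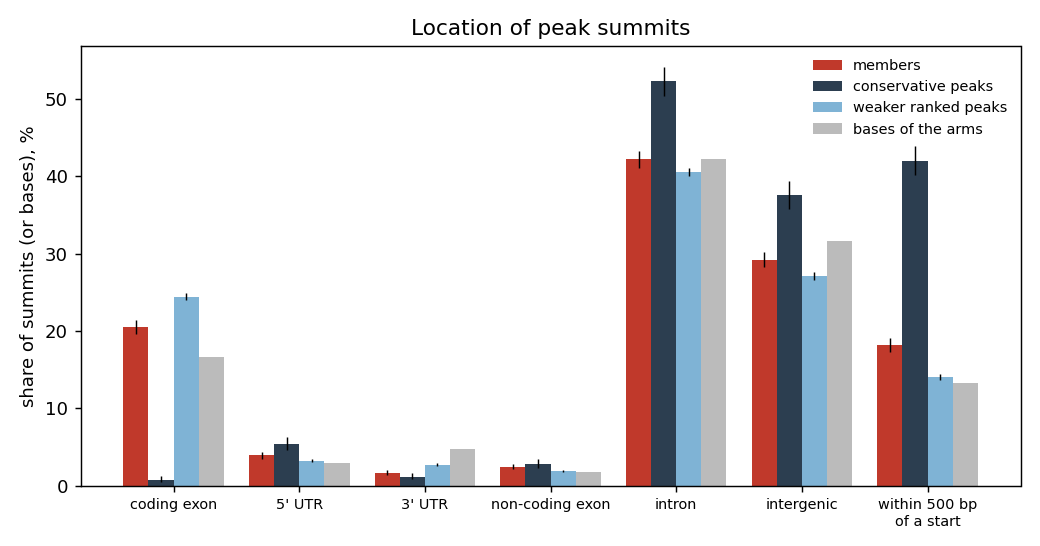
Share of summits (%) in 6 location classes and within 500 bp of a transcript start for the 7705 mid-strength peaks (members), the 2765 conservative peaks and the 33331 weaker ranked peaks, with the share of bases of the arms in grey; error bars are 95% Wilson intervals. The coding-exon bar is 20.6% for the mid-strength peaks, 24.4% for the weaker peaks, 0.796% for the conservative peaks and 16.6% for the bases of the arms.

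GC content of the window within 50 bp of the summit had a median of 46.5% in mid-strength peaks, with quartiles of 38.6 and 54.5, against 29.7% in conservative peaks, with quartiles of 24.8 and 35.6. At least 50% GC was reached by 2945 mid-strength windows (38.2%, interval 37.1 to 39.3) and by 88 conservative windows (3.18%, interval 2.59 to 3.90), a difference whose Fisher's exact p was too small for the software to write. Over equal tiles of the arms the median was 42.6% and the share with at least 50% GC was 23.8%. The weaker peaks had a median of 46.5% and 37.3% of windows at or over 50% (exact adjusted p = 0.155), a difference of 0.878 percentage points. This last difference passed the threshold with the range widened to 30 to 60 (2.73 points) and had the opposite sign with a limit of 45% GC (−1.47 points) and without replicate 2 (−1.34 points, exact adjusted p = 0.0625).

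Windows with at least 1 base masked as repeat or low-complexity sequence in the RefSeq genome were 49.0% of mid-strength, 75.7% of conservative and 46.9% of weaker windows. The course of GC around the summit differed from that of the conservative peaks as well. In mid-strength peaks mean GC formed a broad plateau, 45.9% at the summit, 44.8% and 44.9% at 200 bp to either side and 41.7% at 500 bp. The weaker peaks had a like plateau, 46.5% at the summit, 44.5% at 200 bp to either side and 42.5% and 42.4% at 500 bp. In conservative peaks mean GC dropped to 30.4% at the summit, from 43.6% at 500 bp below it. GC followed location within the mid-strength set. Summits in coding exons had a median of 56.4%, those in introns 43.6% and those in intergenic sequence 44.6%. It also followed strength, with medians of 47.5% at signals of 40 to 45 and 42.1% at 55 to 60. The mid-strength windows ran from 10.9% to 78.2% GC. The most GC-rich lay in a coding exon of lz, a Runx factor gene of blood and eye, at 78.2%, and in the ribosomal protein gene RpS10b at 77.2%. Exons near Vps29, a retromer gene, and CG6527 had 75.2% each, and a 5' UTR of shot, the spectraplakin gene, had 74.3%. The most AT-rich lay in introns of Lasp, a gene for an actin-binding LIM protein, at 10.9% and near CG34026 at 13.9%, and near CG15249 at 13.9%, CG13293 at 14.9% and CG3841 at 15.8%.

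**Figure D2:**
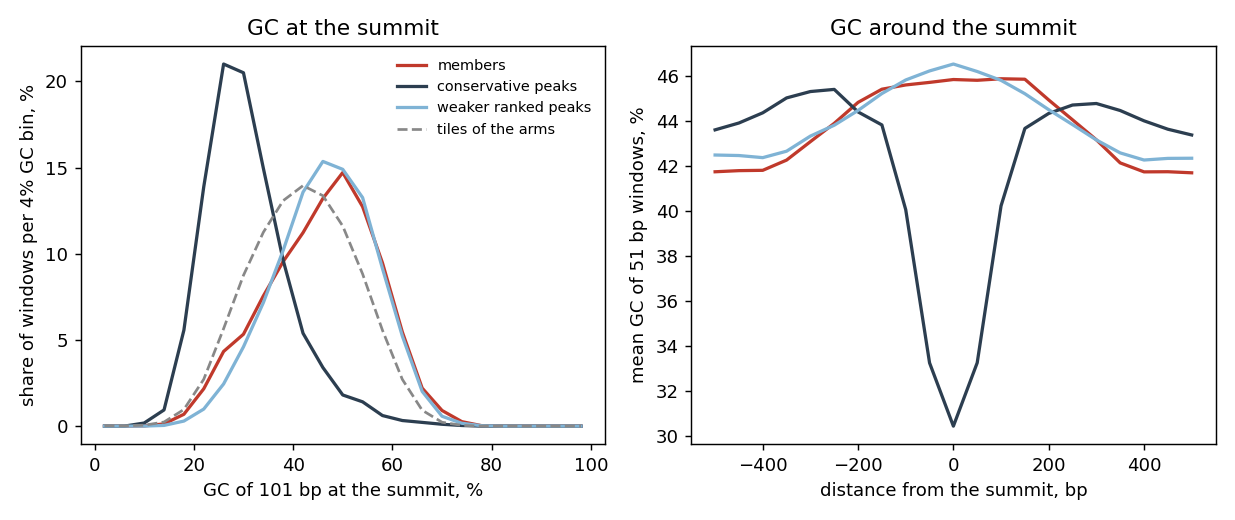
Left, share of summit windows (%) per bin of GC (%) in mid-strength peaks (members), conservative peaks, weaker peaks and tiles of the arms. Right, mean GC (%) of 51 bp windows against distance from the summit (bp). The mid-strength and weaker curves are plateaus, with 45.9% and 46.5% at the summit, and the conservative curve drops to 30.4%.

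The Snail-type hexamer CAGGTG was present within 50 bp of the summit in 411 mid-strength peaks (5.33%, interval 4.85 to 5.86), searched on both strands, against 292 (3.79%) in windows of the same width centred 500 bp away at the higher coordinate. It stood at the summit alone in 396 peaks and in the flank alone in 277 (exact sign test, two-sided, adjusted over 11 motifs, p = 5.63e-05). The Ase/Ac-type E-box CAGCTG, bound by proneural basic helix-loop-helix proteins, was at 430 summits (5.58%) against 4.08% in flanks, 405 against 289 (adjusted exact p = 6.68e-05). The reversed sequence GTGGAC, a control of equal composition, had 3.54% against 3.06%, 266 against 229 (adjusted exact p = 0.232). Of the peaks with the hexamer in only 1 of their windows, 58.8% had it at the summit for CAGGTG and 53.7% for this control. That difference was itself not past the threshold (Fisher's exact p = 0.0835). Of the 11 motifs, only these E-boxes passed against the flank in this setting, by 1.54 percentage points for CAGGTG and 1.51 for CAGCTG. With signals of 45 to 55 the differences were 0.477 and 1.401 points, and within 25 bp they were 0.584 points for each. The counts of motifs that passed were 0 with signals of 45 to 55, 0 with windows within 25 bp, 6 with windows within 100 bp and 6 with signals of 30 to 60. The control passed too in both settings with 6, with adjusted exact p of 0.00217 within 100 bp and 0.000331 with signals of 30 to 60. Among all 10 E-box cores, adjusted over the 10, CAAGTG passed as well, with 7.74% against 6.68% (adjusted exact p = 0.0423).

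The excess was not sharp at the summit. In windows of 51 bp the CAGGTG share was 2.60% at the summit, 2.61% and 2.30% at 100 bp to either side, 2.26% and 2.27% at 200 bp, and 1.95% and 2.01% at 500 bp. Within bins of GC the summit and flank windows had CAGGTG in 1.31% and 0.936% below 30% GC, in 2.42% and 1.78% at 30 to 40%, in 4.30% and 4.43% at 40 to 50%, in 7.56% and 6.64% at 50 to 60%, and in 12.7% and 10.3% at 60% or more. The summit share was the higher one in every bin but that of 40 to 50%, and these differences were not tested. Coding exons held CAGGTG at 10.5% of their summits, introns at 3.88% and intergenic sequence at 3.998%. The control GTGGAC was also most frequent in coding exons, with 7.32, 2.12 and 3.07% in the same order. CAGCTG had 9.15, 4.71 and 4.75%.

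Against the conservative peaks, where CAGGTG stood at 2.03% of summits, the mid-strength share was higher (exact adjusted p = 1.80e-13). The control GTGGAC was higher too, 3.54% against 1.05% (exact adjusted p = 1.56e-12), as were CAGCTG, the Myc-type CACGTG and GAGAGAG, the site of GAGA factor, with 5.58, 1.53 and 1.31% against 2.28, 0.615 and 0.434%. The Twist-type CATATG was lower, 2.65% against 3.80% (exact adjusted p = 0.00981). Windows were then compared within bins of GC. Below 30% GC, CAGGTG stood in 1.31% of mid-strength windows, 0.824% of conservative windows and 0.829% of tiles of the arms, and at 30 to 40% in 2.42%, 2.34% and 2.10%. At 40 to 50% GC it stood in 4.30%, 4.64% and 4.08%. At 50 to 60% GC it stood in 7.56%, 10.1% and 7.31%, the conservative share resting on 7 of 69 windows, and at 60% or more in 12.7%, 10.5% and 10.7%, with 2 of 19 conservative windows. None of the 15 comparisons over 3 motifs and 5 bins had an unadjusted Fisher's exact p under 0.05, and the lowest was 0.256. Against the weaker peaks, with CAGGTG at 5.20%, the share did not pass (exact adjusted p = 0.728), and the difference was 0.138 percentage points. The one motif that passed there was GGTCACACT, the site of the promoter factor M1BP, with 16 mid-strength summits (0.208%) against 18 of the weaker (0.0540%, exact adjusted p = 0.000594). That difference was 0.154 percentage points. It was 0.148 points with summits matched in both replicates (exact adjusted p = 0.285) and 0.0267 points with signals of 30 to 60 (exact adjusted p = 0.577), and passed in neither.

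**Figure D3:**
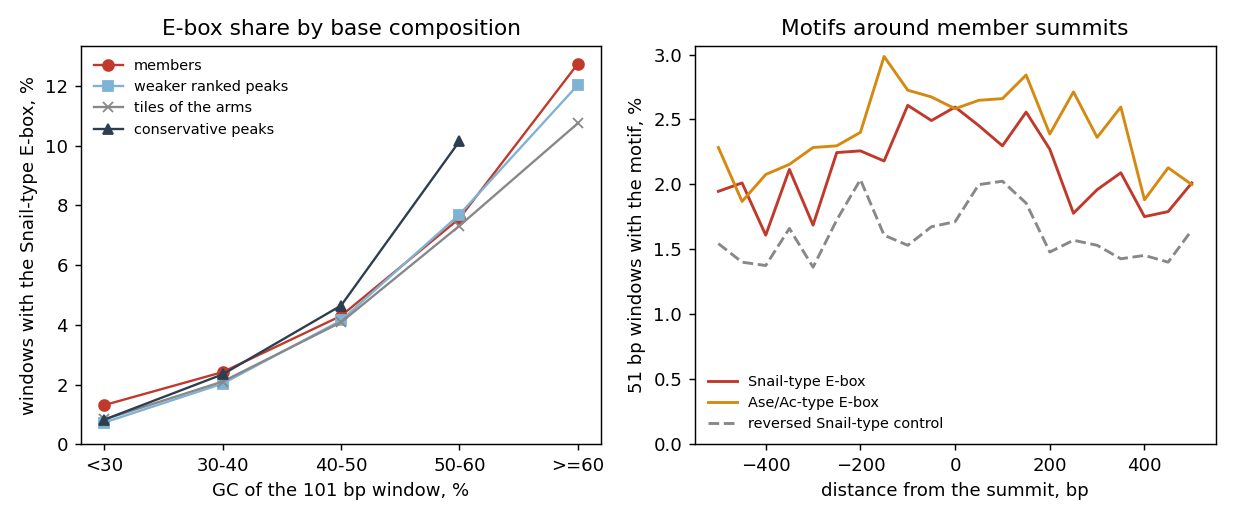
Left, share of summit windows (%) with the Snail-type E-box in bins of GC (%) for mid-strength peaks (members), weaker peaks, conservative peaks (bins with at least 50 windows) and tiles of the arms. Right, share of 51 bp windows (%) with each hexamer against distance from the mid-strength summit (bp); the Snail-type curve is 2.60% at the summit and 1.95 to 2.01% at 500 bp.

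By chromosome, the X held few of these peaks. It carried 805 (10.4%, interval 9.78 to 11.2) with 17.1% of the bases, against 20.5% of conservative peaks (exact adjusted p = 3.42e-38) and 14.6% of weaker peaks (exact adjusted p = 5.11e-23). The difference from weaker peaks was −4.20 percentage points, and −2.73 points without replicate 2. Arms 2L and 3R held 20.5% and 27.2%, which is 1.20 and 1.17 times their share of bases. In weaker peaks these ratios were 1.10 and 1.11, and in conservative peaks 1.06 and 0.941. Chromosome 4 held 10 peaks, 0.132 times its share, and the Y held 3. The other sets were low there too. Chromosome 4 had 0.148 times its share in conservative and 0.196 times in weaker peaks, and the Y held 0 and 13. Peaks on the X had a lower median GC, 40.6% against 47.5% elsewhere, and lay more often in introns, 53.7% against 40.8%. The copy number of the X in these pools of embryos was not measured, and its part was not tested.

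Recovery in the replicates is given as a description, since the list that chose the peaks was made from both replicates. A ranked peak of replicate 1 overlapped 6550 mid-strength peaks (85.0%), and one of replicate 2 overlapped 6543 (84.9%). Over all 44852 ranked peaks with no stronger overlapping peak these shares were 58.6% and 66.5%. Both replicates overlapped 5494 mid-strength peaks (71.3%, interval 70.3 to 72.3), against 41.4% of all these ranked peaks, 99.0% of conservative peaks and 28.1% of weaker peaks. Replicate 1 alone overlapped 1056, replicate 2 alone 1049 and neither 106 (1.38%). The ranked lists on the arms held 55955 peaks in replicate 1 and 36134 in replicate 2, so that chance overlap differs between them, and its size was not tested. A summit within 100 bp was found in both replicates for 4498 mid-strength peaks (58.4%). For these the median signal was 22.7 in replicate 1 and 23.2 in replicate 2, in lists whose signals are not scaled to each other.

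Recovery moved with strength inside the range. At signals of 40 to 42 both replicates overlapped 61.5% of 1707 peaks, at 50 to 52 they overlapped 79.6% of 564, and at 58 to 60 they overlapped 88.2% of 211. The authors' thresholded lists held almost none. The list of replicate 1 overlapped 22 mid-strength peaks (0.286%) and that of replicate 2 overlapped 5. In both were 0 of 7705, with an upper interval limit of 0.0498%. A second thresholded list made from both replicates overlapped 13. The median signal was 46.1 in peaks overlapped in both replicates, 44.2 in those of replicate 1 only, 44.0 in those of replicate 2 only and 42.6 in those overlapped in neither. Median GC was 46.5% in peaks overlapped in both, in replicate 1 only and in replicate 2 only, and 46.0% in those overlapped in neither. Coding exons held 20.7, 19.3, 21.3 and 19.8% of their summits, and CAGGTG stood at 5.52, 5.30, 4.29 and 6.60%, the last of these being 7 of 106 peaks. Intergenic sequence held 31.25% of the peaks of replicate 1 only against 25.4% of those of replicate 2 only, and the X held 12.8% against 9.72%. No test was made between these classes.

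**Figure D4:**
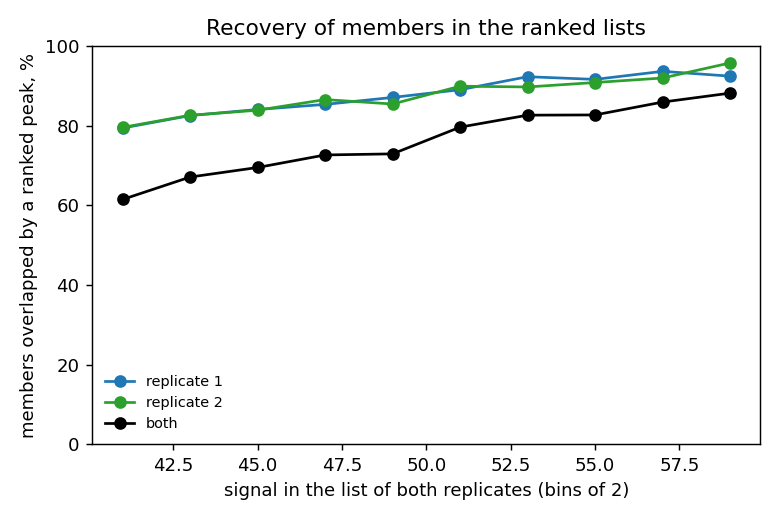
Share of mid-strength peaks (%) overlapped by a ranked peak of replicate 1, of replicate 2 and of both, against signal in the list of both replicates in bins of 2. The share in both goes from 61.5% at signals of 40 to 42 to 88.2% at 58 to 60.

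The peaks that stood highest in both replicates were nearest to genes of varied function, and lay in exons, introns and intergenic sequence. The first of them, the CG44869 peak, is 1 of the 25 mid-strength peaks in the 100 kb around wor and sna that are described below. After the CG44869 peak came one 2336 bp downstream of the start of bic, a gene for a nascent-polypeptide-associated protein, with 32.0 in replicate 1 and 32.3 in replicate 2. A peak in a 3' UTR nearest to CG3603 had 31.4 and 31.9, and one in a coding exon near CG6287 had 31.4 and 31.4. JhI-21, an amino acid transporter gene, had an intronic peak of 31.0 and 32.0. Others were nearest to idc, with 38.4 and 30.7, moody, needed in glia to seal the brain from the blood, with 31.0 and 30.5, BEAF-32, an insulator protein gene, with 30.5 and 35.4, and pk, a planar polarity gene, with 32.3 and 30.5. Further ones were nearest to CG7882, CG2059, Cyp4ac1, Acsx4 and CG44521, with 30.5 to 31.6 in the replicates. Nearest did not always mean close, since the start was 25167 bp from the summit for Acsx4, 12091 bp for CG7882 and 11780 bp for BEAF-32. Beside those printed above, the strongest with CAGGTG in both replicates were nearest to MRP, an ABC transporter gene, with 28.8 and 28.6, CG34221 with 30.7 and 28.5, dpr14, a gene of the immunoglobulin family, with 30.2 and 28.2, and Gr77a, a gustatory receptor gene, with 33.9 and 27.4. CG14655 had 27.8 and 26.9, aos, which encodes an inhibitor of the EGF receptor, had 26.5 and 35.8, and Lsd-2, a lipid droplet protein gene, had 37.9 and 26.5.

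Summits were assigned to genes by the nearest protein-coding start, and 4467 of 13968 genes (32%) had at least 1 mid-strength peak. Of these, 2875 had 1 peak, 1400 had 2 to 4, 192 had at least 5 and 23 had at least 10. Myo81F had 35 and Pzl 26, in territories of 1915 and 1378 kb near the centromere of 3R, which is fewer than 2 per 100 kb against 5.60 over the arms. A territory reaches midway to the neighbouring starts. Dys, the dystrophin gene, had 17 in 131 kb and hth, a homeobox gene, 14 in 134 kb. fru, a transcription factor gene of sexual behaviour, bab1, fz2, a Wnt receptor gene, jing and cic, a repressor gene of the EGF receptor pathway, had 13 each, and Con, a cell adhesion gene, 12. Pzl, bab1 and Con had no conservative peak. A mid-strength and a conservative peak were both nearest to 1021 genes, which is 22.9% of the genes with a mid-strength peak and 51.05% of the 2000 genes with a conservative peak. The median distance from a mid-strength summit to the nearest conservative summit was 17010.5 bp, and 242 (3.14%) lay within 1000 bp of one.

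Lists of developmental genes held more genes with a mid-strength peak than the 32% of all genes, and their territories were longer. All 8 Hox genes had at least 1, from 1 at Scr to 8 at Antp, in territories of median length 45.2 kb against 4.25 kb over all genes. Per 100 kb of territory the Hox genes had 8.10 peaks against 5.60 for the arms. The lists ran from 5.94 for mesoderm and muscle genes to 17.2 for the Snail family. Asymmetric division genes and chromatin and promoter factors had 6.17 each, and segmentation genes 7.17. The order of the lists by share of genes is thus not their order by this rate. The strongest lay in an annotated intron outside Abd-B, the gene with the nearest start, with 59.4, in an intron of Scr with 58.3, and in intergenic sequence near Ubx with 57.8. The Ubx peak was found in replicate 2 alone, at 42.7. Of the 9 matched tracheal genes, 8 had one, with 10 at vvl and 7 at salm, and btl, the FGF receptor gene of the trachea, had none. bnl, which encodes its ligand, had one of 56.4 in an intron, with 33.0 and 26.2 in the replicates. No test was made of any list.

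In the share of genes with a mid-strength peak, neural lists were between these and the genome. The temporal series of neuroblasts, the factors that follow each other as these cells age, had 7 of 9, with 3 each at svp, nub, pdm2, danr and grh, 2 at cas and dan, and none at hb and Kr. The strongest were upstream of nub with 55.05 (34.0 and 19.8 in the replicates) and in an intron of svp with 53.7 (30.9 and 19.5). Neuroblast factors had 13 of 22, with 8 at Dr, 7 each at Myc and sna, 5 at pros and 3 each at SoxN, grh, zfh1 and wor. The strongest peaks of this list were one of wor at 59.0 and one of sna at 56.4, both described below. The proneural genes ac, sc and l(1)sc, the repressor gene dpn and the cargo protein gene mira had none, while ase had 1. The strongest SoxN peak, upstream of its start, had 54.9, with 26.2 and 29.1 in the replicates. Genes of asymmetric division had 11 of 17, with a peak of 59.3 at dlg1 found in replicate 2 alone (38.4), one of 56.5 at insc (29.7 and 21.0) and one of 55.9 at baz (30.6 and 29.2). aPKC, par-6, pins and pon had none. Neuron differentiation genes had 11 of 16, led by the adhesion gene Fas2 with 59.3 (24.4 and 26.3) and the midline cue gene sli with 59.1 (23.3 and 34.2). Cell cycle genes had 9 of 15, with fzr at 53.5, E2f1 at 50.8 and CycD at 49.8, the last pair found in replicate 1 alone. Glial genes had 5 of 10, with alrm at 52.8 and nrv2 at 49.5, the latter found in replicate 2 alone.

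Genes that Snail is known to repress in the mesoderm had 10 of 13, with peaks of 59.5 in an intron of the Notch ligand gene Delta (24.4 and 29.5), 58.4 at the E-cadherin gene shg (23.6 and 31.5) and 58.3 at the BMP inhibitor gene sog (30.4 and 29.5). None of the 28 mid-strength peaks of this list held CAGGTG within 50 bp of the summit, against 5.33% of all mid-strength peaks. The glial, Notch pathway, segmentation and chromatin lists had none with CAGGTG either. The Notch pathway had 10 of 17, with mam at 58.2, found in replicate 2 alone, and Ser at 54.4, segmentation genes had 15 of 20, with run at 57.6, found in replicate 1 alone, prd at 55.4 and ptc at 54.9, and mesoderm and muscle genes had 8 of 13, with kirre at 56.7 and Act57B at 55.8. Chromatin and promoter factors had 6 of 17, close to the share of all genes, with BEAF-32 at 56.6, Trl at 53.3 and pnr at 50.2, the last pair found in replicate 1 alone. A conservative peak was nearest to 12 of these 17 genes, against 2000 of all 13968 genes. In the other lists this ran from 2 of 9 for the temporal series to 3 of 4 for the Snail family.

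The region of the tagged gene stood out along the arms. Among 1379 bins of 100 kb, chosen after the values were seen, the median was 6 mid-strength peaks. The bin at 2L 15400001 to 15500000, which holds wor and sna, had 25, the most of any bin, and the next had 18. Weaker peaks in this bin numbered 27 against a median of 26 per bin, rank 589 of the bins, and conservative peaks 5 against a median of 1. Ranked peaks outside the conservative list with no stronger peak had a median signal of 41.7 in this bin. That was the highest of the 1245 bins with at least 10 such peaks, against a median of 30.5. The value includes the mid-strength peaks that singled out the bin, so it is no evidence separate from their count. The bins to either side had 11 and 6 mid-strength peaks. Of the 25, 19 were overlapped in both replicates and 6 in 1 of them, 2 held CAGGTG, and their signals ran from 40.1 to 59.0 with a median of 49.5. The strain carries its wor fusion as an insertion, the number of copies of this region was not measured, and the part of either in the count was not tested.

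Of the 12 mid-strength peaks of the Snail family, 10 lay in this bin. wor (FBgn0001983, 2L 15423297 to 15425580) had 3. The strongest lay 2185 bp upstream of its start with a signal of 59.0, and had 42.8 in replicate 1 and 19.5 in replicate 2. One at 222 bp upstream had 53.3, with 30.3 and 28.5, and one in the coding exon printed above had 49.4. sna, which directs mesoderm formation, had 7, from 2375 to 19688 bp downstream of its start, with signals of 40.1 to 56.4. The strongest of these had 39.8 in replicate 1 and 14.9 in replicate 2, and the next, with 54.5, had 24.5 and 37.9. esg, which keeps stem and imaginal cells diploid, had 2, one of 46.3 in its coding exon found in replicate 2 alone (32.2) and one of 43.4 with 20.7 and 21.3. scrt, a neuronal member, had none.

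**Figure D5:**
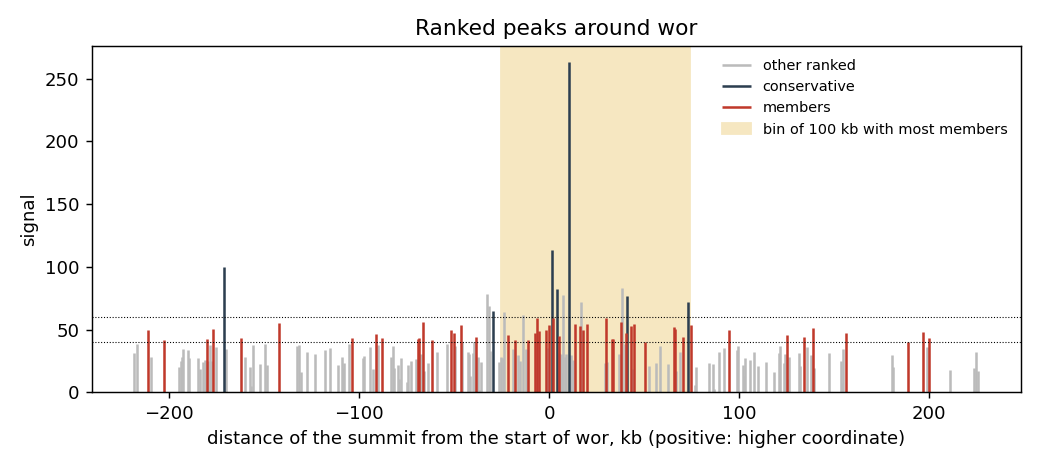
Signal of each ranked peak with no stronger overlapping peak against distance of its summit from the start of wor (kb), coloured as mid-strength (members), conservative or other; dotted lines mark signals of 40 and 60 and the shaded span is the bin of 100 kb with 25 mid-strength peaks. The mid-strength peaks are denser in the shaded span than to either side, where the bins hold 11 and 6.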

How the data were processed

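ChIP-seq peak lists of 2 biological replicates were used: 4 ranked and 4 thresholded lists on dm6, per the labels and the deposited notes. The signal of each peak and the −log10 of the global IDR are values the authors deposited, and the summit is given as its offset from the peak start. Per the deposited notes the lists derive from filtered alignments. Neither aligner nor peak caller is named in the labels or notes. The 8 further unnamed columns of each ranked list were not used. Sonicated fragments were 200 to 800 bp long, per the labels.

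Only the 7 named arms were used. The signal limits, gene lists, motifs and tests were chosen with earlier results of these data known. The annotation was Ensembl release 115 (BDGP6 annotation 54) and the sequence RefSeq Release 6, and annotated transposable elements were kept out of the genes and counted apart. Location classes had the priority coding exon, 5' UTR, 3' UTR, non-coding exon, intron, intergenic. Overlap meant at least 1 bp. Fisher's exact tests and exact sign tests were two-sided, adjusted by Benjamini and Hochberg within each family (22 tests for motifs between sets, 12 for location, 2 each for starts, GC and X), with a threshold of 0.05. Conservative peaks of signal 40 to 60 numbered 16, under the minimum of 50 set for a comparison, so all conservative peaks with no stronger overlapping peak took their place. The 11 motifs were the Snail-type CAGGTG, the Zelda-type CAGGTAG, the Ase/Ac-type CAGCTG, the Twist-type CATATG, the Myc-type CACGTG, the GAGA site GAGAGAG, the DRE site TATCGATA, the M1BP-type GGTCACACT, the Su(H)-type GTGGGAA, the Grh-type AACCGGTT and the control GTGGAC, each on both strands. Tiles of the arms of the window's width gave 3.96% with CAGGTG, 4.22% with CAGCTG and 3.17% with GTGGAC. Of 192 listed symbols, 1 was unmatched, and Dl was read as Delta. Named genes are those of the Snail family, the 10 genes with most peaks, the 15 peaks with the highest lower replicate signal, the 5 extremes of GC on each side, the 10 strongest peaks with CAGGTG in both replicates, the peaks at the signal limits and the 3 strongest of each list. Counts named per gene within the lists, and the windows printed for stops and sina, were chosen after their values were seen. The code was tested on simulated data, with Python 3.11.15, numpy 2.4.6, pandas 2.3.3 and scipy 1.17.1.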

Additional observations from a re-analysis of the deposited data

How the results depend on the processing

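No paired analysis was possible because there is 1 group. Shares near starts, coding exons and the X kept their direction in each alternative run against both peak sets. With only the 16 conservative peaks of signal 40 to 60, chosen after seeing the data, differences were −6.84 points near starts in place of −23.8, 19.5 in place of 35.0 for windows with at least 50% GC and −8.30 in place of −10.1 for the X, and none passed. The number of motifs past the threshold against the flank was 0 with signals of 45 to 55, 6 with 30 to 60, 6 within 100 bp and 0 within 25 bp. Against weaker peaks it was 0 with summits matched in both replicates and 3 within 100 bp, and location classes numbered 2 with matched summits and 3 away from starts. The GC difference against weaker peaks was 2.73 points with signals of 30 to 60, 1.70 with overlapped peaks kept, 2.44 without the X, 1.82 away from starts, −1.47 with a limit of 45% and −1.34 without replicate 2, the last not past the threshold. Recovery in both replicates was 75.4% with signals of 45 to 55, 53.7% with 30 to 60 and 58.4% by summits. Without replicate 1, that is over all peaks overlapped in replicate 2, it was 84.0%, and without replicate 2 it was 83.9%, which this choice of peaks raises. Introns against weaker peaks were −0.0180 points with signals of 30 to 60. Away from starts, 5' UTRs were 0.0923 points against conservative and −0.000659 against weaker peaks, and intergenic summits 1.55 against conservative peaks. Where not stated, the cause was not tested. The depth is unknown.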
